A study of Mus musculus with 4 samples.

Results

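The regions described here are the open-chromatin calls in 5 windows of the mouse genome that carry genes of the Ssbp family and of the LDB1 complex: Ssbp4, Ssbp2, Ssbp3, Ldb1 and Lmo4. They were chosen by position alone, as every call overlapping a fixed GRCm39 window around each gene, and calls of different libraries that overlapped were merged. This gave 42 regions of 72251 in the whole series. The windows were chromosome 8 from 71.03 to 71.08 Mb for Ssbp4, chromosome 13 from 91.58 to 91.87 Mb for Ssbp2, chromosome 4 from 106.74 to 106.93 Mb for Ssbp3, chromosome 19 from 46.0 to 46.05 Mb for Ldb1 and chromosome 3 from 143.87 to 143.95 Mb for Lmo4. The assay was ATAC-seq, in which the transposase Tn5 cuts and tags DNA where chromatin is accessible. All 4 libraries came from B16-F10, a mouse melanoma cell line, 2 of them labelled wild type and 2 labelled knockout for Ssbp4. Per the labels' protocol, the knockout was made by electroporating Cas9 with several guides against Ssbp4, and a control guide aimed between genes on chromosome 2. The labels do not say whether the wild-type libraries received that control guide, whether the knockout cells were a clone or a mixed population, or whether replicates came from separate cultures. A comparison of 2 against 2 libraries cannot give a two-sided permutation p below 0.33, so differences are given as values in each library with no test, and the spread between replicates may be technical.

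LDB1 is a cofactor without a DNA-binding domain of its own. It dimerises, binds LIM domains and so bridges transcription factors at enhancers and promoters. The SSBP proteins SSBP2, SSBP3 and SSBP4 bind LDB1 and protect it from degradation, and LIM-only proteins such as LMO4 link LDB1 to other factors. In blood cells, LDB1 complexes with LMO2, TAL1 and GATA1 sit on E-box and GATA sequences.

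The promoter sequences of the 5 genes are known from RefSeq, and 3 are shown because they hold both the E-box and the GATA sequence. The table of promoters belongs to the GRCm38.p6 build and the calls to GRCm39, so no call was placed on a promoter, and positions in one build cannot be compared with those in the other. All 5 genes matched, with 10 annotated starts, and the 250 bases before each start were searched for GATA on both strands (GATA or TATC) and for the E-box CANNTG, which reads alike on both strands. Both were found before 3 of the 10 starts, against 37.3% of all 32851 promoters in the table, and no GATA match overlapped an E-box. GATA was found before 3 of the 10 starts, against 53.6% of all promoters, and the E-box before 5, against 66.2%. The LIM-homeodomain core TAATTA was before 0 of the 10 starts and in 4.84% of all promoters. The 3 sequences were picked for their matches, which are marked in capitals. They run 5′ to 3′ on the strand of the gene and come from chr8:70608315-70608564 (minus strand), chr4:106922935-106923184 (plus strand) and chr19:46037071-46037320 (minus strand) of GRCm38.p6.
Ssbp4: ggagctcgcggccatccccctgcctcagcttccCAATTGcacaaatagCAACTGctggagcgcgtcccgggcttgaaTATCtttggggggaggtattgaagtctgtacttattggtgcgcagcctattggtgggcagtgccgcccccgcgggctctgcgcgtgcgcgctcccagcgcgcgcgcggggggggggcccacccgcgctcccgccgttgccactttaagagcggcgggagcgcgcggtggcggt
Ssbp3, second start: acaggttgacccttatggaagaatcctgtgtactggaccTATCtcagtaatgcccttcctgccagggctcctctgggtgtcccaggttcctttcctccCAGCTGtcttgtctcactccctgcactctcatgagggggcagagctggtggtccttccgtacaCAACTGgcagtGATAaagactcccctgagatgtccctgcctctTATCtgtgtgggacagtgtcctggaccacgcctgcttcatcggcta
Ldb1, last start: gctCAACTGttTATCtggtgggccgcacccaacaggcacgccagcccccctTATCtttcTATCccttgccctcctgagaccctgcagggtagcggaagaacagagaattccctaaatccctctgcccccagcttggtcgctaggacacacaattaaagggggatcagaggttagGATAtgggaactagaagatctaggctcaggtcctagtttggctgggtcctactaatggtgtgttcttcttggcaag
The Ssbp4 promoter has 2 E-boxes and 1 GATA match in GC-rich sequence with 28 CG dinucleotides. The Ssbp3 sequence has 2 E-boxes and 3 GATA matches, and the Ldb1 sequence 1 E-box and 4 GATA matches. These have 3 and 4 CG dinucleotides, where the median promoter has 6. The first starts of Ssbp3 and Ldb1, with 43 and 40 CG dinucleotides, hold neither motif.

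Each call has a fold enrichment, the pileup of reads at its summit over the local background of the same library, and a p-value whose percentile within the list of its library is used here as the rank of the call. The lists hold 59215 and 63080 calls in wild-type replicates 1 and 2 and 50068 and 57698 in knockout replicates 1 and 2. Fold was lower in the knockout across the genome: the log2 ratio, knockout over wild type, had a median of −0.37 in the 44000 regions that every library called, a fold ratio of 0.774. Ratios below are therefore centred, that is, given as differences from that median on the log2 scale. Markers of melanocytes and of other cells were not analysed here, since genes were not placed on this build.

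Most regions of the 5 windows were also called in the knockout libraries. Of the 42 regions, 26 were called in all 4 libraries (61.9%, against 60.9% of all regions). Another 2 were called in both wild-type libraries and in neither knockout library (4.76%, against 7.09%), and 0 were called in both knockout libraries alone (1.52% of all regions). Of the other 14 regions, 5 were called everywhere but in knockout replicate 1 (6.86% of all regions), which has the shortest list. A further 7 were called in 1 library only (16.8% of all regions), 3 in wild-type replicate 2 and 4 in knockout replicate 2, the longer list of each genotype. The share called in all 4 libraries thus lay near that of the genome. With knockout replicate 1 left out, 31 regions were called in all the remaining libraries and 4 in the knockout alone. With knockout replicate 2 or wild-type replicate 1 left out, 7 or 5 were called in the wild type alone. These settings move regions over the genome too. Of all regions, 6.86% lacked only a call in knockout replicate 1. Another 6.65% were called in wild-type replicate 2 alone and 4.89% in knockout replicate 2 alone.

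**Figure D1:**
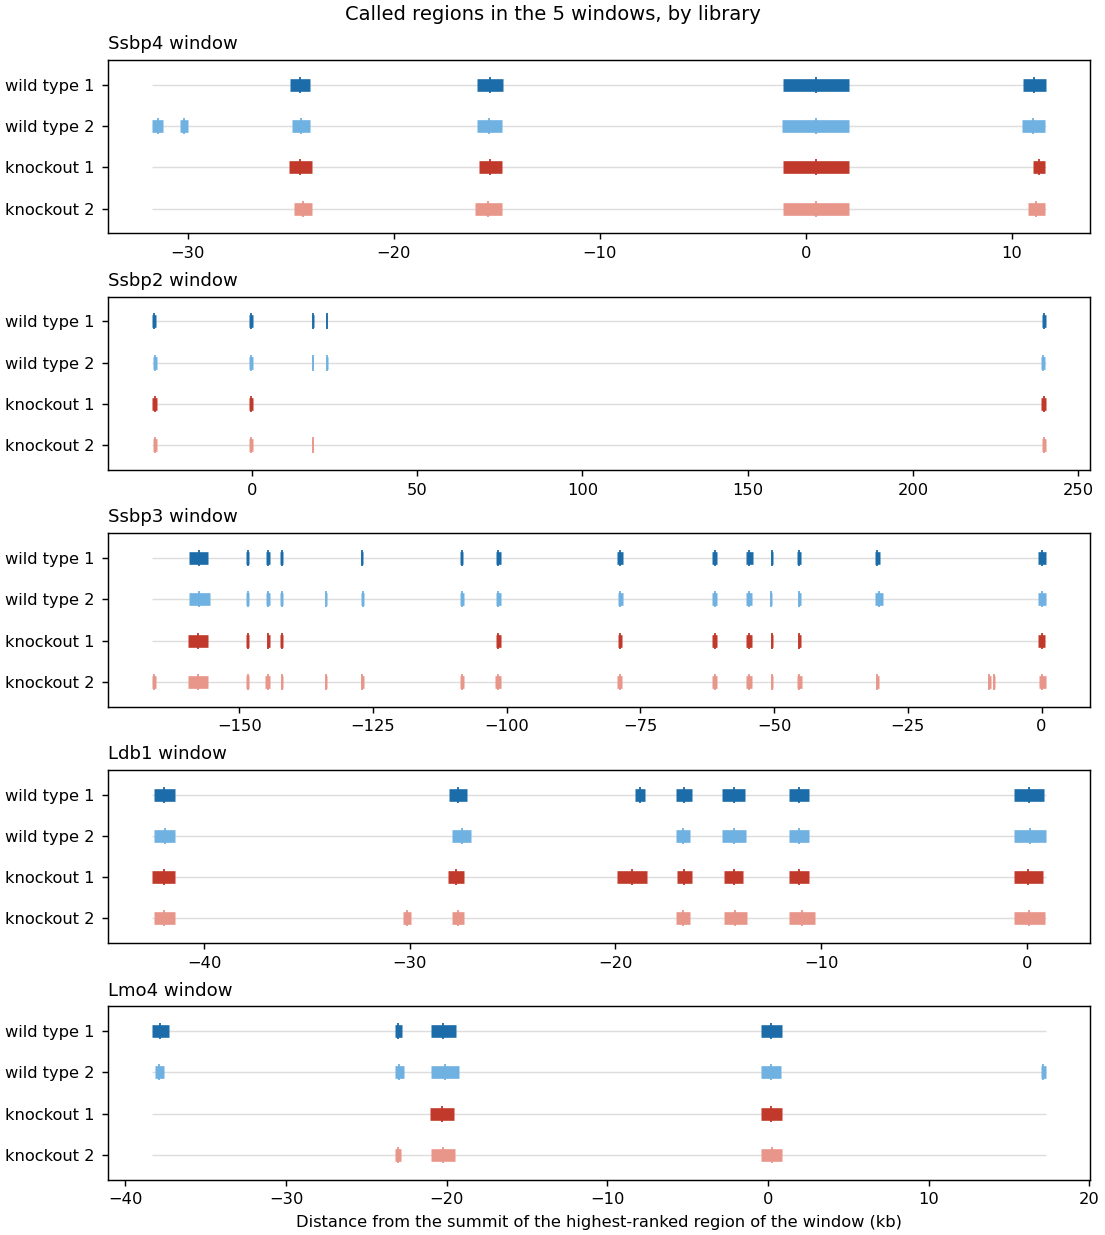
Calls of each library in the 5 windows, drawn as bars of the length of the call with a tick at its centre. The x axis is the distance in kb from the summit of the highest-ranked region of the window. The Ssbp4 window keeps 4 regions in every library, and the 2 regions called in both wild-type libraries alone lie in the Ssbp2 and Lmo4 windows.

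The window of Ssbp4, the gene that was targeted, held calls in both knockout libraries. The calls do not check the knockout label, since they do not read the coding sequence and no label gives the places of the guides. The window holds 6 regions, 12.0 per 100 kb against 2.72 over the genome. Of these, 4 were called in all 4 libraries (66.7%, against 60.9% of all regions). In the RefSeq order of GRCm38.p6 the neighbours of Ssbp4 are Isyna1 and Lrrc25, and calls were not assigned to any of the 3 genes.

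The highest-ranked region of this window, chr8:71061270-71064524, is 3255 bp long. Its fold was 6.13 and 6.23 in wild-type replicates 1 and 2 and 5.79 and 5.86 in knockout replicates 1 and 2. The genotypes did not overlap, with the knockout lower, as in 84.1% of all 44000 regions. The gap was smaller than in most of the genome, and the centred ratio was 0.28, at the 92.8th percentile of those regions. The rank of this region did not separate the genotypes, at percentiles 93.6, 92.9, 93.9 and 92.6. Its summit fell on the same base in all 4 libraries (7.64% of all regions). The second region, chr8:71046347-71047736, had folds of 9.23 and 10.9 in wild type against 7.45 and 8.02 in the knockout, a centred ratio of −0.01. This region kept close to the genome-wide ratio.

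The 2 lower-ranked of these 4 regions stood below the genome-wide ratio. At chr8:71037312-71038460, fold was 8.57 and 10.4 in wild type against 5.71 and 6.35 in the knockout (centred −0.28). At chr8:71072896-71074070 it was 4.28 and 4.61 against 2.98 and 2.54 (centred −0.32). The call there was shorter in the knockout, 585 and 795 bp against 1116 and 1150 bp (30.3% of all regions). In both regions the knockout libraries lay below the wild-type libraries also after centring, as in 32.9% of all regions called in all 4 libraries. Wild-type replicate 2 alone had 2 further weak calls, chr8:71030694-71031222 and chr8:71032027-71032416, at percentiles 8.32 and 7.56.

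The window of Ssbp2, a paralogue of Ssbp4, had few called regions, and 1 of those was missing from both knockout libraries. It is the longest window, at 290 kb, and holds 5 regions, 1.72 per 100 kb, below the 2.72 of the genome. A stretch of 216 kb before the last region had no call in any library. The missing region, chr13:91631587-91632041, had folds of 4.91 and 5.68 at percentiles 33.9 and 39.0 in wild-type replicates 1 and 2. Its calls were 380 and 455 bp long, close to the shortest calls of the knockout lists, 380 and 338 bp. A neighbour 3.6 kb away, chr13:91627213-91627970, had folds of 7.65 and 10.2 in wild type, 4.34 in knockout replicate 2 and no call in knockout replicate 1. This pair was thus weaker in, or missing from, both knockout lists. Both regions lie where the local background is at or near the lowest of the list, which was 14.7 and 15.1 for wild-type replicates 1 and 2, and 17.2 and 17.4 for knockout replicates 1 and 2. The part of background and list length in these missing calls was not tested.

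The highest-ranked region of Ssbp2 was chr13:91608286-91609444. Fold there was 9.07 and 9.88 in wild type against 7.45 and 8.40 in the knockout, a centred ratio of 0.11. The other 2 regions called in all 4 libraries had centred ratios of −0.26 (chr13:91578968-91580394, folds 9.44 and 10.5 against 6.16 and 6.72) and −0.23 (chr13:91848012-91849419, folds 9.69 and 9.90 against 5.61 and 7.44). The first of these straddles the edge of the window. In each of the 3 the folds of the genotypes did not overlap, with the knockout lower, as in 84.1% of all 44000 regions. After centring, the knockout was the higher genotype without overlap at chr13:91608286-91609444 (32.8% of all regions). At the other 2 the knockout remained the lower genotype without overlap (32.9%).

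The window of Ssbp3, the other paralogue, had the most regions, 18 in 190 kb, and the 4 lowest centred ratios among the members. Of its 11 regions called in all 4 libraries, 8 lay below the genome-wide ratio and 3 above. The lowest was chr4:106878367-106879280, with folds of 7.45 and 8.31 in wild type against 3.56 and 4.73 in the knockout (centred −0.57, the 4.10th percentile of all regions). Close to it were chr4:106862496-106863511 with 7.57 and 8.47 against 3.92 and 4.94 (centred −0.49), chr4:106821950-106823116 with 9.04 and 9.71 against 4.95 and 5.43 (centred −0.48), and chr4:106781703-106782365 with 5.26 and 4.81 against 2.83 and 2.74 (centred −0.48). In these 4, both knockout libraries lay below both wild-type libraries before centring (84.1% of all regions) and after it (32.9%). The 4 were picked for their low ratios, so this separation adds no support to them. The region chr4:106844772-106845782 had its summit on the same base in every library (7.64% of all regions). Its folds were 8.72 and 9.15 against 4.82 and 6.42 (centred −0.31). Its centred ratio was −0.02 for pileup and 0.26 for local background. In the 4 lowest regions the centred pileup ratios were −0.48, −0.41, −0.31 and −0.56, in the order given.

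The first and last Ssbp3 regions called in all 4 libraries lay above the genome-wide ratio, as did 1 region between them. The 4061 bp region chr4:106764569-106768629, the longest of all members, had folds of 4.03 and 3.48 in wild type against 3.31 and 3.76 in the knockout, and the genotypes overlapped (centred 0.29). At the other end, chr4:106923413-106924903 had 12.2 and 13.5 against 10.1 and 11.6 (centred 0.12) and ranked at percentiles 88.9 and 89.1 in wild-type replicates 1 and 2. Between them, the weak region chr4:106873354-106873938 had the highest centred ratio of all members, 0.40, with overlapping folds of 2.02 and 2.45 in wild type against 2.04 and 2.52 in the knockout, at percentiles of 3.41 to 21.6. The remaining 3 regions called in all 4 libraries, chr4:106775367-106775994, chr4:106778960-106779908 and chr4:106868755-106870179, had centred ratios of −0.12, −0.22 and −0.20. Their centred ratios were −0.08, −0.30 and 0.02 for pileup and 0.00, −0.12 and 0.19 for local background. The neighbours of Ssbp3 in the RefSeq order of GRCm38.p6 are Acot11 and Mrpl37, and regions were not assigned to genes.

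The median centred ratio over the Ssbp3 regions was −0.22. It was −0.36 with knockout replicate 2 left out and −0.17 with knockout replicate 1 left out, so its size depends on which knockout library is used. In the remaining 7 regions of the window 1 or more lists had no call. Knockout replicate 1 had a call in 0 of these 7, knockout replicate 2 in all 7, wild-type replicate 1 in 3 and wild-type replicate 2 in 4. All of those calls but 1 lay below the 20th percentile of their lists. Knockout replicate 1 has the shortest list. Over all regions, 6.86% lacked only its call, against 1.4% that lacked only a call in knockout replicate 2. A further 4.89% were called in knockout replicate 2 alone.

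The window of Ldb1, which encodes the cofactor itself, held the highest-ranked region of all members. At chr19:46044372-46045933, fold was 12.9 and 13.1 in wild type against 10.9 and 11.1 in the knockout, at percentiles 97.6, 97.0, 96.3 and 95.3. The centred ratio was 0.13. The knockout was the lower genotype in fold without overlap, as in 84.1% of all 44000 regions. All 4 summits fell on 1 base (7.64% of all regions). The window had 8 regions in 50 kb, 16 per 100 kb, the highest density of the 5. In the RefSeq order of GRCm38.p6, Ldb1 lies between Hps6, a gene of lysosome-related organelles such as the melanosome, and Pprc1.

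At other Ldb1 regions, fold was low while rank was not. A run of 3 regions, chr19:46027951-46028739, chr19:46030204-46031387 and chr19:46033446-46034692, had folds of only 1.90 to 4.86 over the 4 libraries but percentiles of 37.1 to 78.7. The local background at their summits was 129 to 215 in wild type and 107 to 171 in the knockout, against medians of 25.3 and 26.8 in wild type against 25.9 and 27.8 in the knockout over all regions. The centred ratios of the 3 were 0.13, −0.06 and 0.16. At chr19:46002493-46003614, fold was 12.9 and 14.3 against 9.90 and 11.2 (centred 0.00). The lowest ratio in the window was at chr19:46016881-46017991, with 4.38 and 4.56 against 2.74 and 2.98 (centred −0.28). There the knockout libraries also lay below after centring, as in 32.9% of all regions called in all 4 libraries. A region called in wild-type replicate 1 and knockout replicate 1 alone, chr19:46025097-46026535, and 1 called in knockout replicate 2 alone, chr19:46014664-46015055, lay at or below the 14.9th percentile.

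The window of Lmo4, a LIM-only adaptor that binds LDB1, had 5 regions. Of these, 2 were called in all 4 libraries (40%, against 60.9% of all regions), and 5 regions are too few to read a difference from. At chr3:143930510-143931833, fold was 12.1 and 13.8 in wild type against 8.26 and 8.93 in the knockout (centred −0.22), and the percentiles within own lists were 77.7 and 77.3 against 67.8 and 69.1. At chr3:143909904-143911697, fold was 5.27 and 6.42 against 5.22 and 5.42 (centred 0.24), and the genotypes overlapped. The summit of this region lay up to 686 bp apart between libraries, the widest spread among the members.

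The other region missing from both knockout lists lay in this window. At chr3:143892626-143893652, fold was 5.36 and 5.33 at percentiles 38.0 and 35.9 in wild-type replicates 1 and 2. Its local background was 14.7 and 15.1, the lowest of those lists. The lowest background was 17.2 and 17.4 in knockout replicates 1 and 2, and its part in the missing calls was not tested. Like the missing Ssbp2 region, this region kept its wild-type calls with a stricter q-value, with lists of equal length and with 50% of the region to be covered. With either wild-type library left out, the other still called it. None of these settings could add a call to a knockout list, so they do not test its absence there. A weaker region, chr3:143907714-143908298, had folds of 2.54 and 2.33 in wild type and 1.90 in knockout replicate 2, and no call in knockout replicate 1. The last, chr3:143947939-143948257, was called in wild-type replicate 2 alone, at percentile 18.1.

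**Figure D2:**
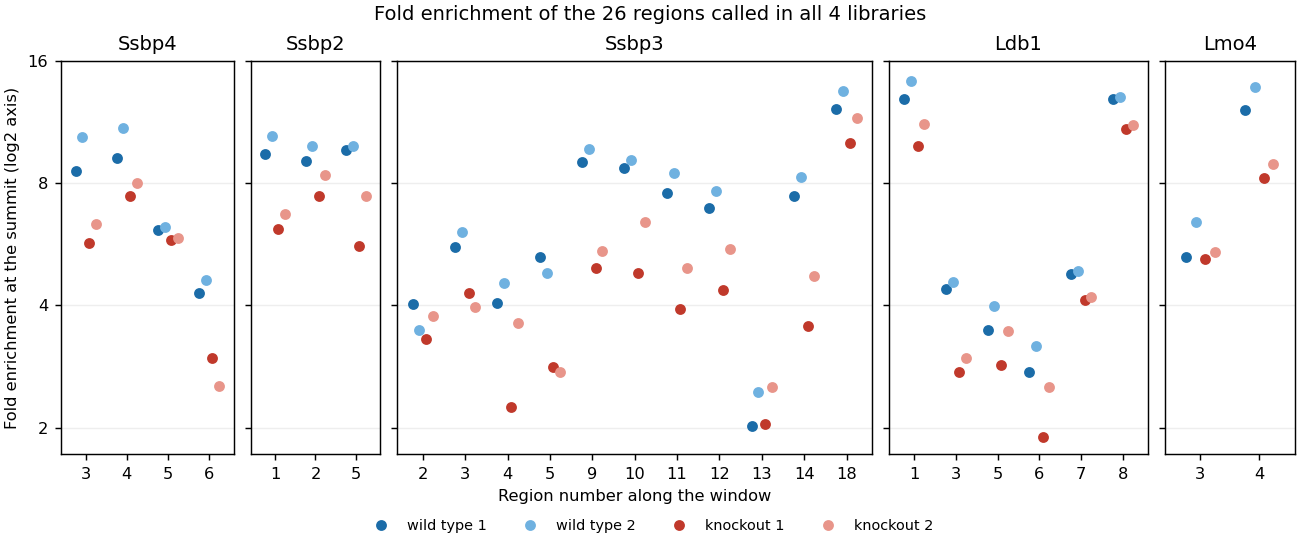
Fold enrichment at the summit, on a log2 axis, of the 26 regions called in all 4 libraries, with 1 point per library and regions numbered along each window. Wild-type points lie above both knockout points in 23 of the 26 regions, and the widest gaps are at regions of the Ssbp3 window.

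Over all 26 regions, fold was lower in both knockout libraries than in both wild-type libraries in 23, against 84.1% of all 44000 regions, and higher in 0, against 1.13%. The uncentred count thus follows the genome. After centring, both knockout libraries lay below in 12 of 26 (32.9% of all regions) and above in 8 (32.8% of all regions). The median centred ratio by window was −0.14 for Ssbp4, −0.23 for Ssbp2, −0.22 for Ssbp3, 0.06 for Ldb1 and 0.01 for Lmo4, over 4, 3, 11, 6 and 2 regions. Of the 26 regions, 16 lay below and 10 above the genome-wide ratio, and 13 and 13 where each library was centred on its own median instead, which put every ratio 0.13 higher. With each library's own median, 68.6% of all regions lay above 0, against 50% before. The 25th to 75th percentile of all regions spans −0.19 to 0.14, which is the spread of single regions and no yardstick for a median of several. Leaving out knockout replicate 2 moved the Ssbp4 median to −0.032. The Lmo4 median was −0.040 without wild-type replicate 1 and −0.087 without knockout replicate 1, so its sign rests on single libraries. Regions of 1 window are neighbours in the same libraries and not replicates.

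The rank of a call depends on the length of its list, so a difference in percentile between libraries is not by itself a change. Within their own lists, both knockout percentiles lay below both wild-type percentiles in 18 of 26 regions (69.2%, against 40.2% of all regions), and above in 0 (11.2% of all regions). The median difference in percentile was −5.53 points over the 26 regions and −2.12 over all, with 19 members below the latter value and 7 above it. When each library ranked only the 44000 regions that all 4 had called, so that the lists were equally long, both knockout percentiles lay below in 9 of 26 (26.7% of all regions) and above in 3 (32.2% of all regions). The median difference was then −0.61 points over the members and 0.41 over all regions. The separation by rank within own lists thus shrank once the same regions were ranked in every library, a ranking chosen after the values were seen. It did not vanish, since members still lay below more often, and above less often, than all regions.

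**Figure D3:**
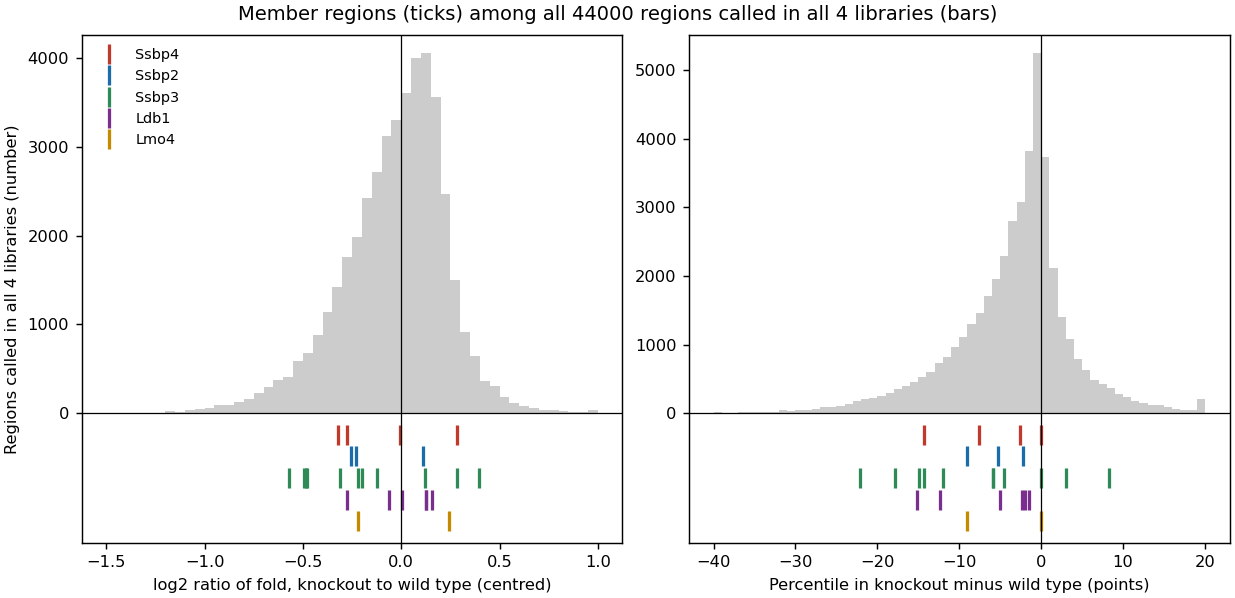
Distribution over all 44000 regions called in all 4 libraries (grey bars, number of regions) of the centred log2 ratio of fold (left) and of the difference in percentile, knockout minus wild type (right), with values beyond the axis put in the end bins. Coloured ticks under the bars are the member regions by gene, and those of Ssbp3 reach from −0.57 to 0.40 on the left.

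The pileup of reads and the local background at each summit, whose ratio is the fold, were solved for from fold and p-value together. In the Ssbp4 region chr8:71061270-71064524 the pileup was 1754 and 1927 in wild type against 1396 and 1471 in the knockout, and the background 285 and 309 against 240 and 250. Relative to the genome, its pileup ratio was 0.00 and its background ratio −0.32, so the high centred fold of this region came with a lower background and not with a higher pileup. At the highest-ranked Ldb1 region the pileup was 1680 and 1813 against 1133 and 1209 and the background 129 and 138 against 103 and 108, which gave centred ratios of −0.21 and −0.39.

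Background in wild type was 50 or more at 10 of the 26 regions, a limit chosen after the values were seen. All 10 had a lower centred background in the knockout (−0.39 to −0.09), as had 94.1% of all regions above that limit, where the median was −0.21. Their median centred ratios were 0.13 for fold and −0.09 for pileup. The other 16 regions had medians of −0.27 for fold and −0.26 for pileup. Over the genome, regions above the limit had medians of 0.14 for fold and −0.02 for pileup, and regions under it −0.08 and 0.01. The 10 were not alike: at the first and last of the Ssbp3 regions called in all 4 libraries, pileup was also higher than the genome-wide ratio (0.14 and 0.07), and at chr8:71046347-71047736 and chr19:46030204-46031387 fold was below it. By their medians, the 16 members with a low background thus stood lower in fold and in pileup than all such regions. Most of the 16 are neighbouring regions of the Ssbp3 window and not replicates, so these medians describe mainly that window. Members with a high background stood near the median of such regions in fold. By pileup, both knockout libraries lay below after centring in 14 of 26 regions (30.7% of all regions) and above in 4 (30.8%).

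**Figure D4:**
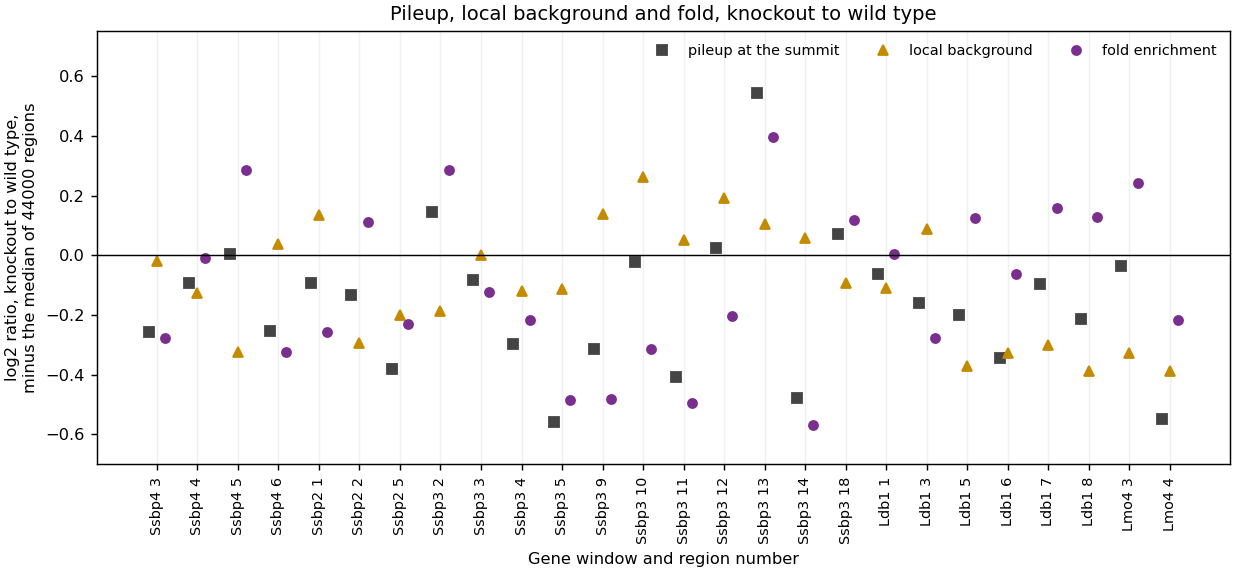
Log2 ratio of knockout to wild type, minus the median over the 44000 regions called in all 4 libraries, of the pileup at the summit (squares), the local background (triangles) and the fold (circles) for each of the 26 regions. At Ldb1 regions 5 to 8 the background is lower than the genome-wide ratio, and at Ssbp3 regions 9 to 14 it is higher.

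The 26 regions were 585 to 4061 bp long with a median of 1171 bp, against 1178 bp over all regions called in all 4 libraries. The call was shorter in both knockout libraries than in both wild-type libraries in 7 of 26 (30.3% of all regions). The 4 summits fell on the same base in 5 of 26 regions (7.64% of all regions) and within 20 bp in 13 (35.2%). These 5 were 1 region of Ssbp4, 2 of Ssbp3 and 2 of Ldb1. The 2 members of 2000 bp or more, at Ssbp4 and Ssbp3, had centred ratios of 0.28 and 0.29, against a median of 0.12 over the 3035 regions of that length. The 7 members at a mean percentile of 75 or more had a median centred ratio of 0.12, against 0.11 for all such regions, and the other 19 had −0.23, against −0.09.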

How the data were processed

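Peaks were called in each library with MACS2 on GRCm39, per the submitters' processing notes. For the aligner, versions, duplicate filter and any shift of reads, a statement was not given in the sources used here. The deposited lists give, per call, a display score (not used), the fold enrichment as a ratio, and the −log10 p-value and −log10 q-value, all computed by the authors. Calls on 21 chromosomes were kept, positions made 1-based, and calls overlapping by 1 bp or more merged into regions, with the call of lowest p-value standing for a library. Percentiles are of the −log10 p-value within each list. Pileup and background were solved from the fold and p-value, the p-value being a Poisson tail and 1 being added to both in the fold. The pileup came out within 0.05 of a whole number in 99.998% of calls of each library. Read totals were not used, so the precision of single values is unknown. The work was done in Python 3.11.15 with pandas 2.3.3 and scipy 1.17.1, and tested on simulated data. Alternatives were a −log10 q-value of at least 5, lists of equal length, 50% cover, windows widened by 20 kb, other centrings, pileup in place of fold, other rankings and each library left out. Regions were named as the 3 highest-ranked, the lowest and highest centred ratio and every lost or gained region of each window. The other regions named were chosen after their values were seen. The members, lists and comparisons were chosen with earlier results of these data known. Other LDB1 partners and marker genes were not analysed here.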

Additional observations from a re-analysis of the deposited data

How the results depend on the processing

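Of the 42 regions, 25 to 26 were called in all 4 libraries under the other thresholds and 37 with windows widened by 20 kb, which hold more regions. The count missing from both knockout lists was 2, with a range of 2 to 7 when 1 library was left out. It was 3 with a −log10 q-value of at least 5 or 50% cover, each adding chr4:106892898-106894435 at Ssbp3. The count called in the knockout alone was 0, with a range of 0 to 4 when 1 library was left out, and 1 with lists of equal length (chr4:106873455-106873938 at Ssbp3). Such counts rise over all regions too when a library is left out. Without centring, the median ratios were −0.51 at Ssbp4, −0.60 at Ssbp2, −0.59 at Ssbp3, −0.31 at Ldb1 and −0.36 at Lmo4, so Ldb1 and Lmo4 changed sign by construction. With pileup in place of fold they were −0.17 at Ssbp4, −0.13 at Ssbp2, −0.082 at Ssbp3, −0.18 at Ldb1 and −0.29 at Lmo4, all negative. Ldb1 and Lmo4 thus had the other sign than by fold, which is pileup over local background. The median centred background ratio was −0.31 at Ldb1 and −0.36 at Lmo4, and why background was lower was not tested. Centred on the median of each library, chosen after seeing the data, the median ratios of fold were −0.011, −0.097, −0.086, 0.20 and 0.14 in the same order of genes. Leaving out 1 library gave −0.19 to −0.032 at Ssbp4, −0.26 to −0.18 at Ssbp2, −0.36 to −0.17 at Ssbp3, 0.034 to 0.053 at Ldb1 and −0.087 to 0.073 at Lmo4. The median percentile of the 26 members called in all 4 libraries was 59.3, and 47.6 when ranked among the regions called in all 4 libraries, a stronger population. No paired analysis was possible because the results come from no test, and no label says that libraries of equal number share a culture or day. Read depth was not used, so a missing call shows only that no call passed the threshold of its list.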
